A study of Mus musculus and Homo sapiens with 10 samples.

Results

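The 10 genes described here encode the Lrrtm proteins (Lrrtm1, Lrrtm2, Lrrtm3 and Lrrtm4) and the Slitrk proteins (Slitrk1 to Slitrk6) of the mouse. They were taken by symbol from an annotation of 21519 protein-coding genes on chromosomes 1 to 19 and X, and all 10 were found. Each was placed on the lamina-associated domains (LADs), the stretches of chromatin that lie at the nuclear lamina, in 2 deposited consensus lists for N2A cells, a mouse neuroblastoma line. Both lists come from DamID, in which the lamina protein LaminB1 is fused to the bacterial adenine methyltransferase Dam, so that GATC sites close to the lamina become methylated. One list was read on Nanopore instruments, where the labels give 1 sample of LaminB1-Dam, and the other on Illumina instruments, where they give 2. Further N2A samples carried Dam alone, were labelled 10% LaminB1-Dam or were wild type; the sources used here do not say whether any of them entered the consensus lists. Per the labels, doxycycline switched the fusions on, at 2 µg/mL. The sources used here do not say whether the cells came from 1 clone. The lists hold positions only, with no value per sample. Depth is therefore unknown, there is no spread between replicates, and the markers of the cell line could not be checked. The values below are descriptions of these lists, set beside the same measure over all protein-coding genes, and no test was made on them.

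Lrrtm and Slitrk proteins are transmembrane proteins with leucine-rich repeats (LRR) outside the cell, and they help to build synapses. They sit mainly on the postsynaptic side and bind receptors on the axon: Lrrtm proteins bind neurexins or heparan sulfate proteoglycans, and Slitrk proteins bind receptor tyrosine phosphatases of the LAR type. Lrrtm proteins are known for excitatory synapses, and Slitrk3 is known for inhibitory synapses. LADs are as a rule poor in genes and in transcription, and many genes of the nervous system lie in them in cells that do not use those genes. Transcription was not measured in the files used here.

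Of the 10 genes, 9 lay with their whole body inside a LAD of both lists, against 22.8% of all protein-coding genes (4901 of 21519). Taken list by list, the same 9 lay wholly inside, beside 26.8% of protein-coding genes by Nanopore and 23.5% by Illumina. The exception was Lrrtm2, which had 0% of its body in LADs of either list; by midpoint 70.4% of protein-coding genes lay in neither. By midpoint the counts were again 9 of 10 with each list, beside 28.9% of protein-coding genes in Nanopore LADs, 25.4% in Illumina LADs and 24.7% in both. The 9 genes are not 9 separate observations. They fell into 5 Nanopore LADs and 6 Illumina LADs, because neighbouring members shared a domain. These LADs were wide. All 9 genes had hosts of at least 3 Mb in both lists, which held for 5.48% of all protein-coding genes. That is 1180 genes, out of 5324 with a midpoint in LADs of both lists. The median host of those 5324 genes was 1.64 Mb wide by Nanopore and 1.5 Mb by Illumina. The median LAD was 690 kb wide by Nanopore and 660 kb by Illumina, and 125 of 1174 Nanopore LADs and 110 of 1149 Illumina LADs reached 3 Mb.

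**Figure D1:**
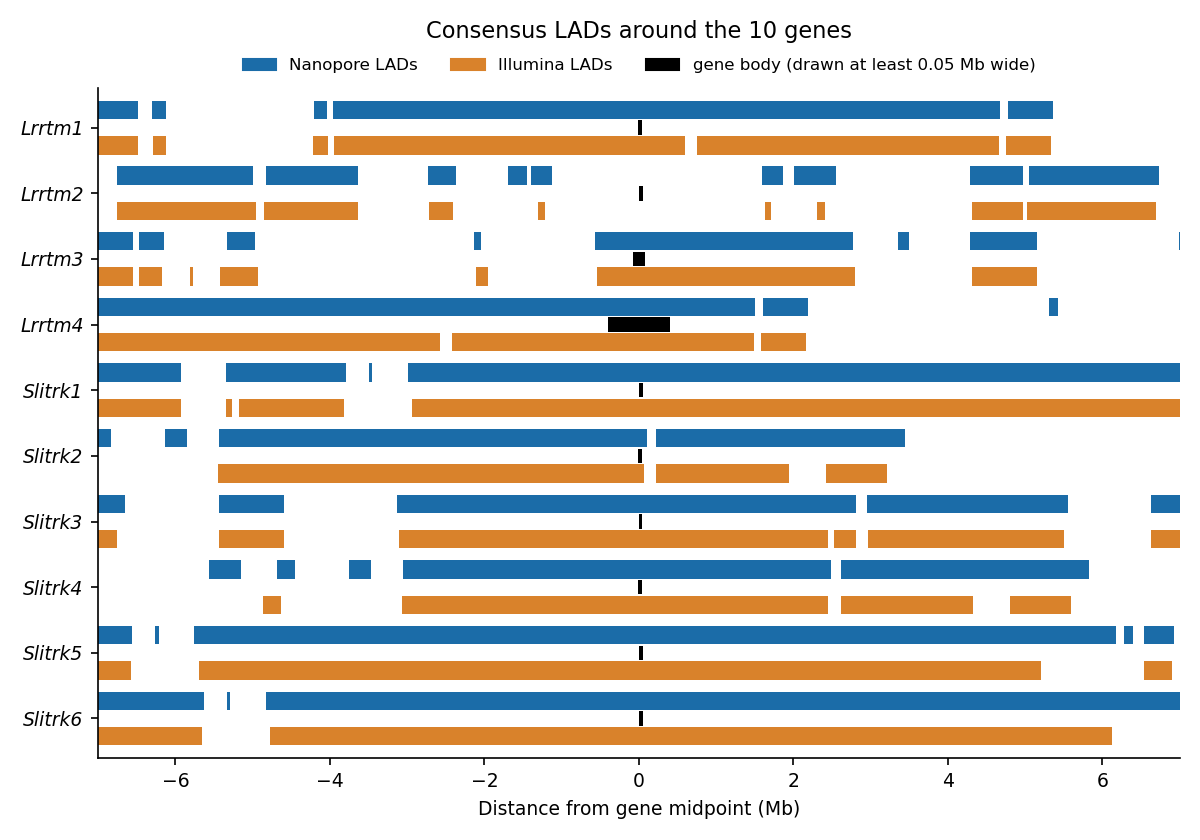
Consensus LADs by Nanopore (blue) and Illumina (orange) along the chromosome around each gene, with distance from the gene's midpoint in Mb on the x axis and 1 row per gene; black marks the gene body. Lrrtm2 sits between LADs, Slitrk2 lies close to the end of its LAD, and the other 8 genes lie within wide domains.

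Slitrk1, Slitrk6 and Slitrk5 lay in the widest of these domains, on chromosome 14. Slitrk1 (chromosome 14, 108909988 to 108914239, mm10), a gene studied in tic disorders, is 4.25 kb long. Slitrk6 (110747338 to 110755204), needed for hearing and vision, is 7.87 kb long. Slitrk5 (111675115 to 111683144), whose loss gives mice compulsive grooming, is 8.03 kb long. The gap from Slitrk1 to Slitrk6 was 1.83 Mb and from Slitrk6 to Slitrk5 0.92 Mb, with no other protein-coding gene between them. Their host LAD ran from 105920001 to 117860000 in the Nanopore list, which is 11.94 Mb. The Illumina list gave 105980001 to 116880000, which is 10.9 Mb. It was the fourth widest LAD of each list. It held 6 protein-coding genes by Nanopore and 5 by Illumina, and 3 of them were Slitrk genes. That is 0.503 and 0.459 protein-coding genes per Mb, where LADs as a whole held 4.2 and 4.04. The neighbours outside the trio were Trim52, 2.77 Mb before Slitrk1, and the glypican gene Gpc5, 3.41 Mb after Slitrk5. Both lay wholly in the same LADs.

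Depth inside a LAD was measured as the distance from a gene's midpoint to the nearest border. Slitrk5 lay 5.76 Mb from a Nanopore border and 5.2 Mb from an Illumina border. Slitrk6 lay 4.83 and 4.77 Mb inside, and Slitrk1 2.99 and 2.93 Mb inside. Slitrk5 thus lay deepest of the 10 genes by both lists. Protein-coding genes in LADs had a median of 289.9 kb by Nanopore and 259.9 kb by Illumina. Among such genes, Slitrk5 was at percentile 99.8 by Nanopore and 99.7 by Illumina, and Slitrk1, the shallowest of the trio, at 98.8 and 99.1. Of the 10 genes, 8 lay over 500 kb inside a LAD by both lists, which held for 7.58% of protein-coding genes. Over 2 Mb inside by both lists were 5, all of them Slitrk genes, beside 0.79% of protein-coding genes. The Slitrk genes fell into 3 LADs of each list, so these are not 5 separate observations. Lrrtm1 lay 3.96 Mb inside by Nanopore but 595 kb by Illumina.

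The sequences just before the starts of these neighbours differed in base composition although the genes share a LAD. They are shown because LAD sequence is mostly poor in G+C and in CpG, and Slitrk5 departs from that. Each holds the 250 bases before an annotated start site, from RefSeq (GRCm38.p6), 5′ to 3′ on the gene's strand, with every CG in capitals. Start sites were listed apart from the gene coordinates. The window of Slitrk5 lay inside its gene coordinates, and that of Slitrk6 overlapped them. The windows are chr14:108914240-108914489 (minus strand), chr14:110755150-110755399 (minus strand) and chr14:111675777-111676026 (plus strand).
Slitrk1: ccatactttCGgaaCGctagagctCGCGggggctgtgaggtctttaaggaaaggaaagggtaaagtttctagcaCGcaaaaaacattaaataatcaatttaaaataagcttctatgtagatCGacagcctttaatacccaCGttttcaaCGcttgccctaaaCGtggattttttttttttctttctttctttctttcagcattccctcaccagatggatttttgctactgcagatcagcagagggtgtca
Slitrk6: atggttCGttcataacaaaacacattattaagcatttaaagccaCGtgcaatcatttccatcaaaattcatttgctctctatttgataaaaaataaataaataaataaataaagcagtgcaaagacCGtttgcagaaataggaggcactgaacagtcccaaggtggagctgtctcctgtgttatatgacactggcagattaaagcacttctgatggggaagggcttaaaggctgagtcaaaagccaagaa
Slitrk5: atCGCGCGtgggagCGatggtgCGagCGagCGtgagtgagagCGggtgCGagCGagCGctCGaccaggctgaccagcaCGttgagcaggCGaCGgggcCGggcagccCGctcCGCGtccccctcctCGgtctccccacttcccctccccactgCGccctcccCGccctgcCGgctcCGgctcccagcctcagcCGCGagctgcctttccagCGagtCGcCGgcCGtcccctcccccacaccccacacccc
The window of Slitrk5 had 30 CG and 74.8% G+C. The window of Slitrk1 had 9 CG and 40.4% G+C, and that of Slitrk6 had 3 CG and 37.2% G+C. Over 4808 promoters with the start site in LADs of both lists the medians were 2 CG and 44.8% G+C. Over 15237 promoters in neither list they were 13 CG and 58.4%. Slitrk5 was above both medians in CG and in G+C. Slitrk6 was close to the LAD median in CG, and its G+C was below the lower quartile of promoters in LADs, 37.6%. CG occurred in 93.6% of all 21044 promoters of protein-coding genes. Methylation of these CpG sites was not analysed here.

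Promoters were in the table for 8 of the 10 genes, with 10 start sites in all. Slitrk4 and Lrrtm2 had none there. Some start sites lay inside the gene coordinates, such as 77242477 for Lrrtm1. All 10 start sites lay in LADs of both lists, beside 4808 of all 21044 promoters of protein-coding genes. They belong to 8 genes that share LADs, and Lrrtm2, the member outside LADs, is not among them. G+C was 42.0% before the start of Lrrtm1, 46.0% for Lrrtm3, and 49.2% and 54.0% at the pair of Lrrtm4 starts. It was 57.6% for Slitrk3 and 58.0% and 61.6% at the pair of Slitrk2 starts. The Slitrk genes thus held both the lowest value, at Slitrk6, and the highest, at Slitrk5, with the Lrrtm genes between them. GATC, the letters that Dam methylates and that read the same on both strands, occurred in 4 of the 10 windows: 3 times at Slitrk3, 2 times at Slitrk1, 2 times at 1 start of Lrrtm4 and once at 1 start of Slitrk2. Of all promoters 40.3% held it. LADs were called on a grid of 20 kb, so a window of 250 bases without GATC says nothing on the call around it.

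**Figure D2:**
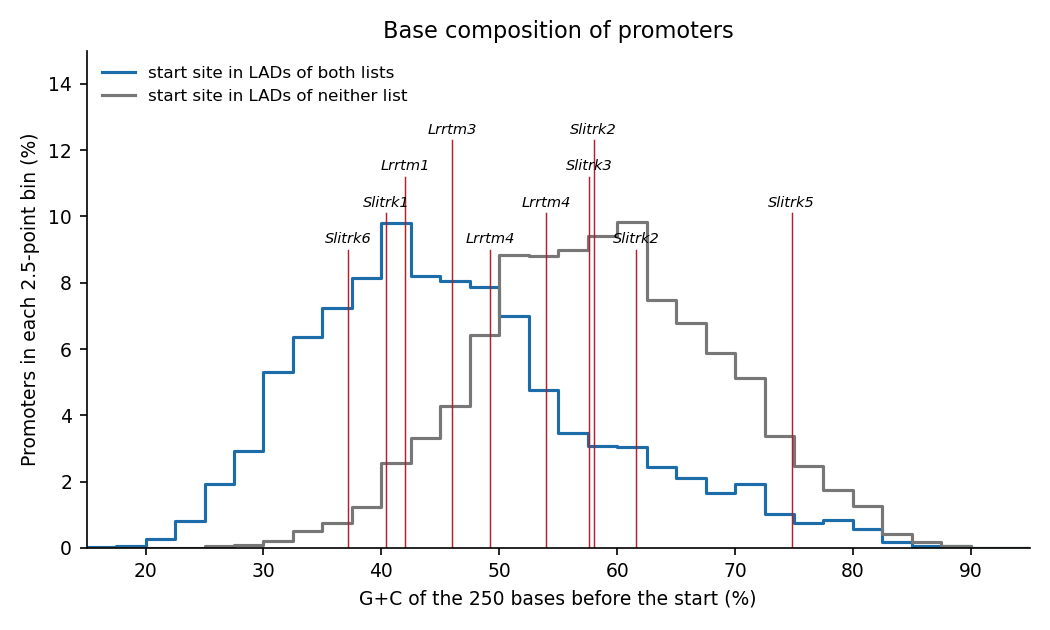
G+C content (%) of the 250 bases before the start on the x axis and the share of promoters per bin (%) on the y axis, for start sites in LADs of both lists (blue) and of neither (grey); red lines mark the 10 start sites of 8 of the genes. Slitrk6 at 37.2% and Slitrk5 at 74.8% are the extremes of the group, although they share a LAD.

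Slitrk4 and Slitrk2 lay together on chromosome X, 2.37 Mb apart. Slitrk4 (X, 64264883 to 64277345) and Slitrk2 (X, 66648951 to 66661402) are nearly equal in length, at 12.46 and 12.45 kb. Their LAD ran from 61220001 to 66760000 in the Nanopore list, which is 5.54 Mb. The Illumina list gave 61200001 to 66720000, which is 5.52 Mb. It ranked 37 by width in the Nanopore list and 31 in the Illumina list. Slitrk4 lay in its interior, 2.49 Mb from a border by Nanopore and 2.45 Mb by Illumina. Slitrk2 lay at its end. Its midpoint was 105 kb from the Nanopore border and 64.8 kb from the Illumina border, and its last base was 98.6 and 58.6 kb from them. This is below the median of protein-coding genes in LADs, at percentile 24.2 and 17.5. Slitrk2 thus shared a domain with Slitrk4 and lay far closer to its edge. Beyond that edge a gap of 120 kb by Nanopore and 160 kb by Illumina led to the next LAD. The following gene, Gm52436, lay 97.4 kb after Slitrk2, with 64.6% of its body in the Nanopore LAD and 0% in Illumina LADs.

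Slitrk3 (chromosome 3, 73047066 to 73057953), 10.89 kb long, was the only Slitrk gene without another member on its chromosome. Its LAD ran from 69920001 to 75860000 in the Nanopore list, which is 5.94 Mb. The Illumina list gave 69940001 to 75500000, which is 5.56 Mb. The midpoint lay 2.81 Mb inside by Nanopore and 2.45 Mb inside by Illumina. The earlier borders differed by 20 kb, which is 1 step of the grid. The later borders differed by 360 kb, as the Illumina list had a gap of 80 kb there, followed by a separate LAD of 280 kb. The nearest protein-coding genes were Sis, the gut sucrase-isomaltase gene, 79.2 kb before, and Bche, which encodes butyrylcholinesterase, 578 kb after. Both were wholly inside the same LADs, so that this domain held genes used in other tissues beside Slitrk3.

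**Figure D3:**
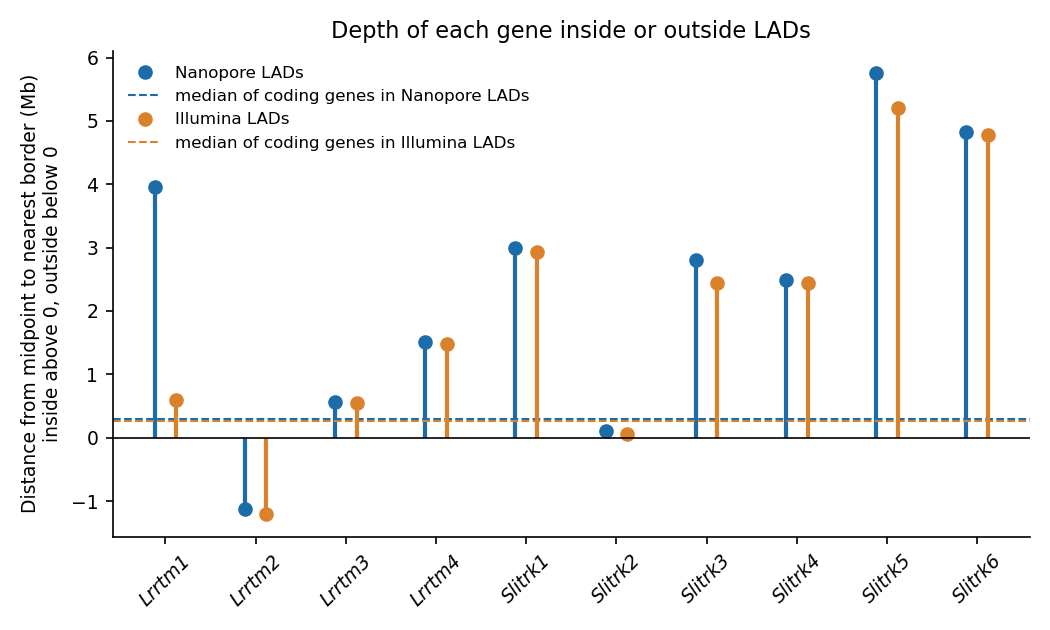
Distance (Mb) from the midpoint of each gene to the nearest LAD border on the y axis, above 0 inside a LAD and below 0 outside, by Nanopore (blue) and Illumina (orange); dashed lines give the median of protein-coding genes inside LADs of each list, 289.9 and 259.9 kb. Slitrk5 is deepest, Slitrk2 is below the medians, Lrrtm2 is outside, and Lrrtm1 is the gene whose depth differs most between the lists.

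Lrrtm1, Lrrtm2 and Lrrtm3 each lie inside a gene for an alpha-catenin, proteins that tie cadherins to the actin cytoskeleton. The annotation placed Lrrtm1 within Ctnna2, Lrrtm2 within Ctnna1 and Lrrtm3 within Ctnna3. Each Lrrtm gene had the LAD status of its host. Ctnna2 (chromosome 6, 76881637 to 77979815) had 100% of its body in Nanopore LADs and 87.3% in Illumina LADs. Ctnna3 (chromosome 10, 63430098 to 65003667) had 99.4% and 98.1%. Ctnna1 had 0% in each. A nested gene shares its position with its host, so these pairs are not separate observations. Ctnna2 and Ctnna3 are 1098 and 1574 kb long.

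Lrrtm1 (chromosome 6, 77229210 to 77259915), a 30.7 kb gene whose product binds neurexins, had the largest difference in border distance between the lists among the 10 genes. By Nanopore it lay in a LAD of 8.64 Mb (73280001 to 81920000), 3.96 Mb from the nearest border. By Illumina its LAD was 4.54 Mb wide (73300001 to 77840000), and the nearest border was 595 kb away. The difference came from a gap of 160 kb in the Illumina list, from 77840001 to 78000000, that the Nanopore list did not have. Both lists covered 100% of the Lrrtm1 body. The gap held the start of Ctnna2, whose gene runs on the minus strand: its annotated start at 77979667 lay 20.3 kb from the Illumina border after it and outside Illumina LADs, and 3940.3 kb inside the Nanopore LAD. The 250 bases before that start (chr6:77979668-77979917, minus strand, CG in capitals) are shown because they lie where the lists part.
Ctnna2: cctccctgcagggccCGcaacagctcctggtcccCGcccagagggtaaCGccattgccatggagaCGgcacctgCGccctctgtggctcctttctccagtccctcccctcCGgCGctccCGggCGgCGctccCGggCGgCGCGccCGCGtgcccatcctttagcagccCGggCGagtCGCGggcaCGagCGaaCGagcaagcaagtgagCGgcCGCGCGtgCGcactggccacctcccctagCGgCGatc
They had 30 CG, as many as the window of Slitrk5, and 73.2% G+C. By Nanopore both starts lay inside LADs, 5756 kb from a border at Slitrk5 and 3940.3 kb at Ctnna2. By Illumina the start of Slitrk5 lay 5204 kb inside and that of Ctnna2 in the gap. These are 2 chosen windows, and a link between composition and LAD calls was not tested.

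Lrrtm4 (chromosome 6, 80018858 to 80810162), known for excitatory synapses of the dentate gyrus, lay 2.76 Mb after Lrrtm1 and is the longest member, at 791 kb. By Nanopore it shared the LAD of 8.64 Mb with Lrrtm1, which ranked 11 by width. By Illumina it lay on the far side of the 160 kb gap, in a LAD of 3.9 Mb (78000001 to 81900000). Its midpoint was 1.51 Mb from the nearest border by Nanopore and 1.49 Mb by Illumina, since the border after it differed by only 20 kb. The whole gene was covered by both lists. The next protein-coding gene, Gcfc2, 1.1 Mb after Lrrtm4, straddled the Nanopore border with 19.4% of its body inside and had 0% in Illumina LADs.

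Lrrtm3 (chromosome 10, 63928497 to 64090255), 162 kb long, had the narrowest host of the 9 genes in LADs. The LAD was 3.34 Mb wide in both lists. Nanopore placed it at 63440001 to 66780000 and Illumina at 63460001 to 66800000, a shift of 20 kb at each end. Its midpoint lay 569 and 549 kb inside. Lrrtm3 and Ctnna3 were the only protein-coding genes with a midpoint in that LAD by either list. The first annotated start of Ctnna3, at 63430098, lay 9.9 kb outside the Nanopore LAD and 29.9 kb outside the Illumina LAD, at or near the step of the grid. Dnajc12, 520 kb before Lrrtm3, and Reep3, 2.92 Mb after it, had 0% of their bodies in LADs of either list. The nearest protein-coding genes that do not overlap Lrrtm3 thus lay outside LADs on both sides, unlike Trim52 and Gpc5 beside the trio on chromosome 14.

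Lrrtm2 (chromosome 18, 35209003 to 35215024), a 6.02 kb gene for a neurexin ligand of excitatory synapses, was the member outside LADs. Its midpoint was 1.13 Mb from the nearest Nanopore border, at 34080000, and 1.21 Mb from the nearest Illumina border, at 34000000. On the other side the next LAD began at 36800001 by Nanopore and at 36840001 by Illumina. LADs covered 0% of the 2 Mb around its midpoint in both lists. Its host Ctnna1 (35118902 to 35254776) spans 136 kb of this stretch. Its neighbours Gm46617 and Sil1, 89.3 kb before and 51.4 kb after, also had 0%. For the other 9 genes LADs covered 78.5 to 100% of the 2 Mb window by Nanopore and 77.5 to 100% by Illumina, with Lrrtm3 lowest in both.

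Lrrtm2 also stood in a different gene neighbourhood. It had 36 other protein-coding genes with a midpoint within 1 Mb, and the other 9 members had 0 to 9. Slitrk1 had 0. Lrrtm1, Lrrtm4, Slitrk5 and Slitrk6 had 1 each, Slitrk3 had 2, Slitrk2 and Slitrk4 had 3 each and Lrrtm3 had 9. The median of all protein-coding genes was 29, and 22 for those in LADs of both lists. Few genes have surroundings as sparse as the 8 members with up to 3 neighbours: 446 of 21519, or 2.07%, and 66.1% of these lay in LADs of both lists by midpoint. The count of 8 of 8 members in this class stands beside that 66.1% and not beside the 24.7% of all genes. Of genes with 30 or more neighbours, the class of Lrrtm2, 20.3% lay in both.

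**Figure D4:**
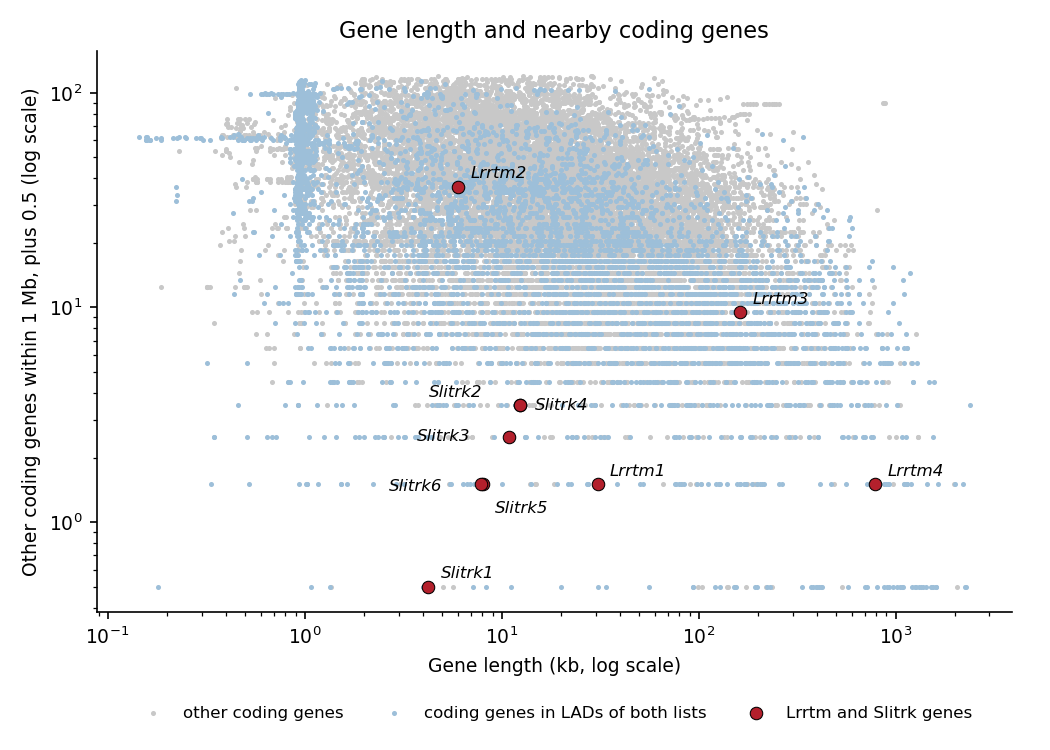
Gene length (kb, log scale) against the number of other protein-coding genes with a midpoint within 1 Mb, plus 0.5 (log scale), for 21519 protein-coding genes; blue points have their midpoint in LADs of both lists and red points are the 10 genes. Lrrtm2 lies among gene-dense surroundings with 36 neighbours, and the other 9 genes have 0 to 9.

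The Slitrk genes were short. Their lengths ran from 4.25 to 12.46 kb. Of protein-coding genes of 500 kb or more, the class of Lrrtm4, 67.7% had their midpoint in LADs of both lists. In the classes of the Slitrk genes the shares were 33.3% below 10 kb and 15.5% from 10 to 20 kb. Of the 7 members under 20 kb, 6 lay in both lists, all of them Slitrk genes, and Lrrtm2 was the exception.

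Genes of related roles were counted by midpoint from further lists. Of all protein-coding genes, 24.7% lay in LADs of both lists and 70.4% in neither. Of 7 genes for presynaptic partners, 3 lay in LADs of both lists and 4 in neither. Nrxn3 (chromosome 12, 88722701 to 90334935), which encodes a neurexin, had 100% of its body in LADs by Nanopore and 91.3% by Illumina. Nrxn2 (chromosome 19, 6418756 to 6533217) had 0% in each list. Among the receptor phosphatases of the LAR type, Ptprd (chromosome 4, 75941237 to 78211742) had 100% in both lists, and Ptprs and Ptprf had 0%. Nrxn3 and Ptprd are 1612 and 2271 kb long, and the 4 partners outside, with the glypican gene Gpc4, were 64.1 to 114 kb long. Both sides of this adhesion system therefore had genes inside and outside LADs.

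Of 14 genes for other postsynaptic organizers, 6 lay in LADs of both lists and 8 in neither, beside 24.7% and 70.4% of all protein-coding genes. The median length was 623 kb for those inside and 15.5 kb for those outside. Inside were Nlgn1, a neuroligin of excitatory synapses, Il1rap and Il1rapl1, which bind the same phosphatases as Slitrk proteins, Lrrc4c, a netrin-G ligand gene, and Lrfn2 and Lrfn5. Nlgn2, Nlgn3, Ntrk3, Lrrc4 and Lrrc4b were among those outside. Of 19 genes for other neuronal LRR proteins, 5 lay in both lists, Flrt2, Flrt3, Lingo2, Lrrn1 and Amigo2, and 14 in neither. The share of the latter list is close to the 24.7% of all protein-coding genes. Of 17 genes for synaptic scaffolds, 2 lay in both lists, Dlgap1 and Dlgap2, beside the same 24.7%. Homer1 (chromosome 13, 93303757 to 93405129) had 100% of its body in Nanopore LADs and 0% in Illumina LADs.

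**Figure D5:**
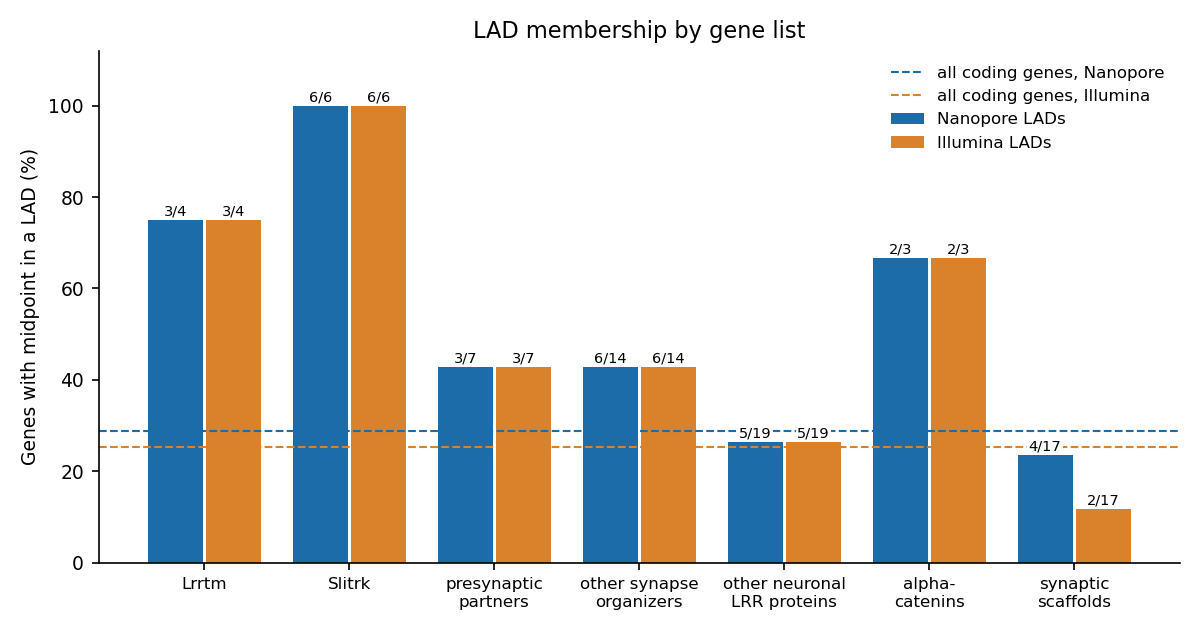
Share of genes with their midpoint in a LAD (%) on the y axis for each gene list, by Nanopore (blue) and Illumina (orange), with the number of genes over each bar; dashed lines give all protein-coding genes, 28.9% and 25.4%. Slitrk genes have 6 of 6 in LADs of each list, Lrrtm genes 3 of 4, and other neuronal LRR genes 5 of 19.

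Within these lists short genes were mostly outside LADs. Of 14 listed genes under 20 kb that are not members, 2 lay in LADs of both lists, Flrt3 and Amigo2. The share over all protein-coding genes was 33.3% below 10 kb and 15.5% from 10 to 20 kb, beside 24.7% at all lengths. Of 12 listed genes of at least 500 kb, 11 lay in both lists, beside 67.7% of all protein-coding genes this long. The 11 include Ctnna2 and Ctnna3, which hold Lrrtm1 and Lrrtm3. The exception was Dlg2, whose midpoint was 22.7 kb from a Nanopore border. The 6 Slitrk genes, all under 20 kb and all inside, stand beside these counts, which are not matched for surroundings. The 14 short listed genes had from 6 (Flrt3) to 111 (Lingo3) other protein-coding genes within 1 Mb. The Slitrk genes had 0 to 3, a class with 66.1% in LADs of both lists. The Slitrk genes share 3 LADs in each list, and the difference was not tested.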

How the data were processed

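LaminB1-Dam samples of N2A cells were read by Nanopore (1 labelled sample) and Illumina (2 samples). Each deposited list holds interval coordinates in base pairs, with no other value, made by the authors as a consensus. Tools named in the submitters' processing notes, with no role given, are bedtools, deepTools, minimap2 and SAMtools; the mouse build named is mm10. For the LAD caller, its thresholds and the samples behind a list (such as the sample labelled 10% LaminB1-Dam) the answer is the same: not given in the sources used here. All LAD borders on chromosomes 1 to 19 and X lay on a 20 kb grid, so differences of 1 step are not resolved.

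Genes came from RefSeq's GRCm38.p6 annotation, the assembly behind mm10, leaving out genes listed below 3 Mb. The share of each gene body in LADs, the LAD at the midpoint, its width and the distance to the nearest border were computed with Python 3.11.15, numpy 2.4.6 and pandas 2.3.3, and tested on simulated intervals. RefSeq promoters gave strand and sequence; promoters were matched for 8 of 10 genes by symbol. Related genes were counted from lists fixed by role. Genes named are the members, genes of those lists, overlapping genes and the nearest protein-coding genes. The members and lists were chosen with earlier results of these data known, so no test or adjusted p is given. The human CTCF peaks were not used. Values of some single genes of the lists are not reported here.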

Additional observations from a re-analysis of the deposited data

How the results depend on the processing

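The count of 9 of 10 genes in LADs of each list was the same when 50% of the body, any overlap or the whole body was required, when LADs under 100 kb were left out, and when every LAD was shrunk or widened by 20 kb. By start site the count was 8 of the 8 genes that had one, and Lrrtm2 had none. None of these settings could move a gene across a border. Each body was covered by 100% or 0%, the narrowest host was 3.34 Mb wide, and the closest gene end lay 58.6 kb from a border. Joining LADs up to 40 kb apart changed no width or border distance, as the smallest gap was 60 kb. Joining gaps up to 100 kb moved the median host width over the 9 genes from 8.64 to 9.56 Mb by Nanopore and left it at 5.52 Mb by Illumina. By start site the median border distance was 2899 kb by Nanopore and 2162 kb by Illumina, against 2807 and 2447 kb by midpoint. Slitrk4 has no start site in the table, and over the same 8 genes the midpoints gave 2899.8 and 1966 kb. Of the values of individual genes, 16 moved by more than a grid step and 136 did not, none of them across a LAD border. The 136 include the shares of gene body and the values after joining gaps up to 40 kb, which could not change here. Without chromosome X, 5806 protein-coding genes lay in Nanopore LADs and 5154 in Illumina LADs, against 6223 and 5469 with it. These counts had to fall, and no share without chromosome X was computed. No paired analysis was possible because the lists carry no value per sample, and no replicate could be left out. Depth is unknown for both lists, and its part in differences such as the gap between Lrrtm1 and Lrrtm4 was not tested.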
